A study of Mus musculus with 10 samples.

Results

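Axon guidance ligands and receptors are the semaphorins, Slits, netrins and ephrins together with the membrane proteins that read them, namely plexins, neuropilins, Robo, Unc5 and Dcc receptors and the Eph kinases. The genes described here were taken by a rule on symbols, as every gene row of the deposited tables whose symbol belongs to one of these families. This gave 68 of 48397 gene rows, 34 of ligands and 34 of receptors, and all 68 are protein-coding genes in the GENCODE M21 annotation of the mouse assembly GRCm38. RNA was sequenced in bulk from the left atrium of wild-type mice, in 5 libraries after sham surgery and 5 libraries after transverse aortic constriction (TAC). The operation leaves a narrowed aorta, against which the left heart must pump. Surgery was done at 2 months of age and tissue was taken 2 weeks later, in C57BL/6J males per the series' design text. The comparison asks which guidance genes of the atrium differ after pressure overload, in a series whose title names the transcription factor ETV1 and rapid conduction. The sources describe the material differently, as left appendage prepared with RNeasy and TruSeq kits in the design text and as left atrium prepared with RNeasy Plus and Nugen Trio kits in the sample labels. Neither says whether a library is 1 animal or a pool, so the p-values given here measure the spread between libraries, part of which may be technical.

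Guidance proteins were named for steering growing axons, and the same ligands and receptors act on endothelial cells, fibroblasts, leukocytes and muscle. Secreted class 3 semaphorins bind a neuropilin that is paired with a plexin, whereas membrane-bound semaphorins bind plexins directly. Netrins attract through Dcc and repel through Unc5 receptors, Slits repel through Robo receptors, and ephrins on one cell bind Eph receptor kinases on its neighbour, with signals running in both directions. In the heart, class 3 semaphorins pattern the sympathetic nerves and guide cardiac neural crest, the ephrin-B2 and EphB4 pair separates arteries from veins, and Slit and Robo take part in septum and valve formation.

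Libraries held between 17117306 and 43956384 counts in all, and the shallowest 2 were sham replicates 1 and 2. Mitochondrially encoded genes took 14.6% to 17.4% of counts in sham and 9.31% to 14.2% in TAC (exact two-sided permutation p = 0.0079, the smallest that 5 libraries against 5 allow). The atrial markers Myl7 (8888 ± 623 CPM in sham and 2158 ± 811 in TAC, SD, n = 5) and Sln (2626 ± 250.2 and 1204 ± 206) were abundant in both groups, and the ventricular marker Myl2 was at 23.8, 11.6, 0.881, 47.1 and 218 CPM in sham replicates 1 to 5 and 7.26, 2.64, 2.16, 1.82 and 10.1 in TAC replicates 1 to 5. Sham replicate 5 therefore carried the most Myl2 of all libraries. Myl3, another ventricular marker, did not separate that library in the same way. It was at 96.7, 148, 18.75, 84.2 and 319 CPM in sham replicates 1 to 5 and 172, 12.8, 68.7, 37.0 and 315 in TAC replicates 1 to 5.

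Several marker lists for the cell types of atrial tissue moved with the groups, and their part in the results below was not tested. Summed CPM of the 10 cardiomyocyte markers ran from 85810 to 101300 in sham and from 44660 to 58260 in TAC, with 1 marker higher and 9 lower. The 10 fibroblast markers summed to 1978 to 2543 in sham and 4118 to 9147 in TAC (6 higher, 1 lower), the 10 macrophage and monocyte markers to 279 to 474 and 688 to 1120 (9 of 9 tested higher), and the 9 cycling-cell markers to 10.3 to 30.2 and 166 to 498 (all 9 higher). In the fibroblast list, Col1a1 (179 ± 24.0 to 1293 ± 692 CPM), Col1a2 (272 ± 42.2 to 1744 ± 893) and Postn (55.2 ± 23.1 to 723 ± 389) gained the most CPM. Dcn was the marker called lower (1195.5 ± 185.75 to 903 ± 92.0), and Pdgfra, Dpt and Pi16 were not called. The fibroblast sum is therefore not a measure of fibroblast number. Endothelial markers summed to 1245 to 1814 and 1446 to 2163 (5 of 10 higher, 1 lower), smooth muscle and pericyte markers to 431 to 567 and 765 to 1092 (5 of 9 higher, 1 lower), and lymphatic markers to 170 to 240 and 83.8 to 131 (1 of 6 tested higher, 4 lower). The nerve-related lists were small: neuron markers summed to 13.5 to 19.1 and 30.4 to 61.8 CPM (3 of 5 tested higher, 1 lower), and Schwann cell markers to 98.3 to 136 and 60.02 to 69.97 (1 of 9 tested higher, 6 lower). Among the neuron markers Chat had no count in any library, and Snap25 had 1 in the sham libraries together and 2 in the TAC libraries. Most of the TAC signal of that list was Uchl1 (34.7 ± 13.2 CPM), which other cell types also express. The 1 marker called lower was Dbh, the noradrenaline-forming enzyme of sympathetic nerves, from 11.3 ± 1.61 to 4.98 ± 2.55 CPM. Tubb3 (0.246 ± 0.184 to 1.89 ± 0.735 CPM) and Gap43 (0.270 ± 0.0916 to 0.520 ± 0.184) were called higher, and Prph was not called. Th, too low to test, had 4 counts in the sham libraries together and 29 in the TAC libraries. Lymphocyte markers summed to 1.28 to 5.21 CPM in sham and 2.13 to 6.93 in TAC, with 7 of 10 genes too low to test and 1 of 3 tested higher (Cd79b, from 0.349 ± 0.272 to 1.56 ± 0.581 CPM). Adipocyte markers summed to 50.1 to 168 CPM in sham and 1.32 to 39.9 in TAC (6 of 6 tested lower), red blood cell markers to 136 to 300.1 and 298 to 2547 (all 5 higher), and epicardial markers to 111 to 373 and 158 to 401 (1 of 8 higher). In bulk RNA, fewer cells of a type and less RNA per cell cannot be told apart.

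**Figure D1:**
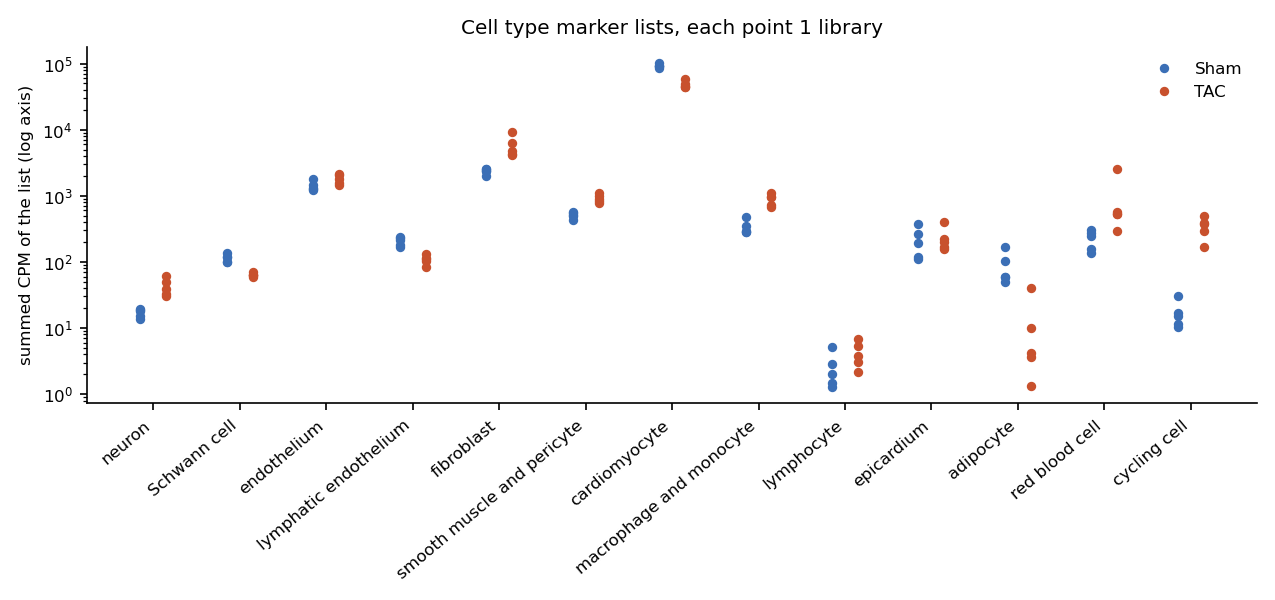
Summed TMM-normalised CPM (log axis) of each cell type marker list, with 1 point per library for 5 sham and 5 TAC libraries. Cardiomyocyte sums are lower in every TAC library (44660 to 58260) than in every sham library (85810 to 101300), and fibroblast, macrophage and cycling-cell sums are higher.

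Guidance genes changed in both directions, and about as often as other genes. Levels are given as CPM, counts scaled to a common library size after TMM (trimmed mean of M values) correction, and a gene was called at an edgeR quasi-likelihood adjusted p (Benjamini-Hochberg over all 15175 genes tested) under 0.05. Of the 68 members 59 passed the filter on low counts, and of these 21 were higher in TAC (35.6%, against 28.9% of all tested genes) and 13 lower (22%, against 27.9%). In both directions together 57.6% of the tested members were called, beside 56.8% of all tested genes, and 44.1% had groups with no overlap in CPM, beside 41.7%. These shares lie near the background, and the number of calls is therefore no result about guidance genes. The median log2 fold change (TAC over sham) was 0.18 over the 59 members and 0.01 over all tested genes. Receptors were called higher in 13 and lower in 5 of 28 tested cases (median 0.28), and ligands in 8 and 8 of 31 (median 0.07).

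Scaling sets the balance of these calls. When libraries were scaled by their size alone, 33 members were higher and 9 lower. Increases then made up 78.6% of the members called, beside 61.8% under TMM. Over all genes called, increases made up 80.05% under that scaling and 50.9% under TMM, and the median of all genes moved from 0.01 to 0.37. Fold changes below are relative to TMM scaling.

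**Figure D2:**
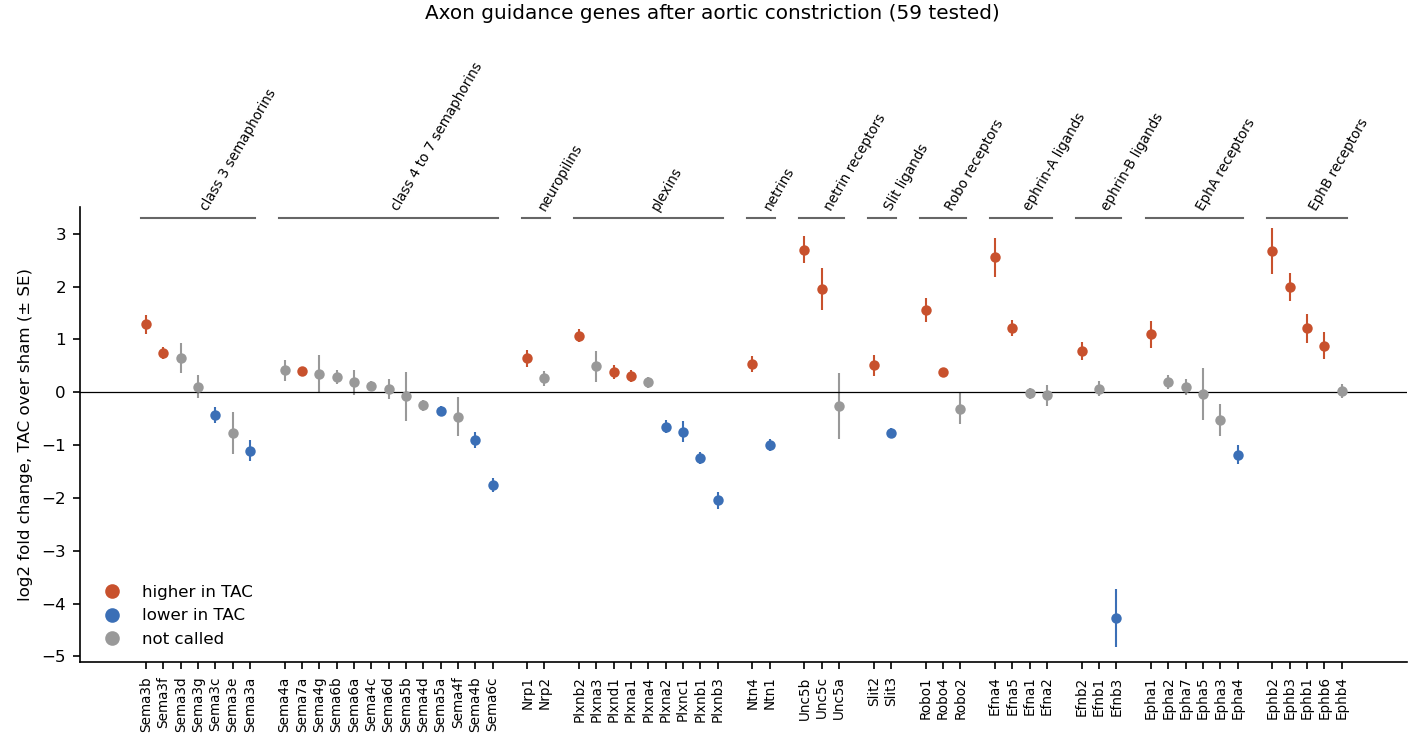
Log2 fold change, TAC over sham, with its standard error for the 59 tested members, grouped by family and sorted within it. Orange points were called higher (21 genes), blue points lower (13) and grey points were not called (25). Unc5b and Ephb2 are the highest points and Efnb3 is the lowest.

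The netrin system held the largest fitted increase of a guidance receptor, Unc5b, with that of Ephb2 within its standard error, beside a fall of the ligand Ntn1. Unc5b, a netrin receptor of endothelial and other cells that also acts as a dependence receptor, was at 28.99, 27.9, 23.2, 33.0 and 25.8 CPM in sham replicates 1 to 5. It was at 87.7, 276, 169, 203 and 163 CPM in TAC replicates 1 to 5. Every TAC library lay well above all sham libraries, with TAC replicate 2 the highest and TAC replicate 1 the lowest of its group. The gene lies on the minus strand of chromosome 10, 60762593 to 60831581 (GRCm38) and rose 6.47-fold (log2 fold change 2.69, SE 0.26, edgeR adjusted p = 9.8e-06). Without TAC replicate 2, which also had the highest summed fibroblast markers (9147 CPM), the log2 fold change of Unc5b was 2.51.

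Ntn1, the secreted, laminin-related founding netrin, was at 128, 127, 112, 109 and 118 CPM in sham replicates 1 to 5 and at 69.7, 45.1, 64.9, 62.5 and 54.3 in TAC replicates 1 to 5. The groups did not overlap, and Ntn1 fell 2.00-fold (log2 fold change -1.003, SE 0.11, edgeR adjusted p = 2.0e-05). Ntn4, a netrin of vascular basement membranes, moved the other way, from 25.1 ± 5.42 to 36.3 ± 4.75 CPM (SD, n = 5), which is a log2 fold change of 0.53 with SE 0.15. Levels of different genes are compared per kilobase of merged annotated exon, which is rough because it counts exons that may not be expressed. On this measure Ntn1 stood at 18.9 and Ntn4 at 6.72 CPM in sham, whereas in TAC they were at 9.45 and 9.71. Ntn1 therefore made up 73.9% of the per-kilobase netrin signal in sham and 49.1% in TAC. By the same measure Unc5b went from 4.44, below Ntn1, to 28.7 CPM per kilobase, above both netrins.

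Among the remaining netrin receptors, Unc5c, another dependence receptor, rose from 0.351 ± 0.185 to 1.39 ± 0.503 CPM (log2 fold change 1.95 and SE 0.39) but stayed rare. Unc5a was uneven within both groups, at 1.30, 7.22, 1.58, 3.45 and 2.89 CPM in sham and 3.22, 4.41, 4.68, 0.617 and 0.686 in TAC, and was not called (edgeR adjusted p = 0.75). Its 2 lowest TAC values belonged to replicates 4 and 5. Dcc, the attractive netrin receptor, had 1 count in all 10 libraries together. Unc5d and Ntn5 were also below the filter, with means under 0.1 CPM in both groups.

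The stretch just before the transcription start of Unc5b is shown because this receptor had the largest fitted increase, with each CpG dinucleotide in capitals. It covers 200 bases, chr10:60831582-60831781 on the minus strand of GRCm38.p6, written 5′ to 3′ from the RefSeq promoter table.
Unc5b: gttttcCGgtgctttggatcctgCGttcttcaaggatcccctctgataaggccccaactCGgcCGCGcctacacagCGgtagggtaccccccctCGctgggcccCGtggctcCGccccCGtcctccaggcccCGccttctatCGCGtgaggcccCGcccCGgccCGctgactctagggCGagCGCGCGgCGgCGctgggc
It holds 22 CpG dinucleotides at a GC content of 71.5%. None of the 5 motifs searched for the promoters below was found in its 300-base window.

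In the ephrin system Ephb1, Ephb2, Ephb3 and Ephb6 rose (4 of 5 EphB genes, where 28.9% of all tested genes were higher), while the ligand Efnb3 fell to under 1 CPM. Ephb2 was at 1.12, 0.447, 0.425, 1.01 and 1.01 CPM in sham and 2.06, 9.72, 4.56, 5.58 and 3.80 in TAC, and rose 6.37-fold (log2 fold change 2.67, SE 0.43, edgeR adjusted p = 2.9e-04). Ephb3 was at 4.90, 4.35, 3.46, 4.10 and 4.50 CPM in sham and 7.15, 22.7, 16.8, 20.8 and 16.5 in TAC, and rose 3.95-fold (log2 fold change 1.98, SE 0.26). Both are receptor kinases for ephrin-B ligands, both had no overlap between groups, and both were highest in TAC replicate 2 and lowest in TAC replicate 1. Leaving out TAC replicate 2 gave log2 fold changes of 2.33 for Ephb2 and 1.87 for Ephb3.

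Ephb1 rose from 2.21 ± 0.785 to 5.16 ± 1.61 CPM (log2 fold change 1.21 and SE 0.27), and Ephb6, whose kinase domain is inactive, from 4.51 ± 1.74 to 8.17 ± 1.91 CPM (log2 fold change 0.88 and SE 0.25). Part of the exonic bases of Ephb1 (2.17%) is shared with an antisense gene. Ephb4, the venous receptor for ephrin-B2, was by far the most abundant of the class and was not called, at 102 ± 18.9 and 104 ± 14.9 CPM (edgeR adjusted p = 0.87). In sham it supplied 90.7% of the per-kilobase EphB signal and in TAC 79.4%. The groups overlapped for Ephb4 and Ephb6 and not for the other 3 EphB genes, where 41.7% of all tested genes had no overlap. Under library-size scaling Ephb4 was called as well (0.39, edgeR adjusted p = 0.047).

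Efnb3, a transmembrane ephrin, was at 3.35, 8.69, 3.04, 4.95 and 16.2 CPM in sham and 0.439, 0.523, 0.474, 0.147 and 0.264 in TAC. Sham libraries differed more than 5-fold among themselves, with replicate 5 the highest, yet even the lowest of them was far above every TAC library. The gene lies at chromosome 11, 69554092 to 69560205, and its fall was 19.3-fold (log2 fold change -4.27, SE 0.54, edgeR adjusted p = 6.6e-05), the largest of any member. Sham replicate 5 was also the library with the most Myl2 (218 CPM). Myl3 was at 319 CPM there and at 315 in TAC replicate 5, where Efnb3 was at 0.264. Among sham libraries, replicate 2 came next after replicate 5 for both Myl3 (148 CPM) and Efnb3 (8.69). The part of ventricular tissue in the level of Efnb3 was not tested. Without sham replicate 5 the log2 fold change of Efnb3 was -3.73 (edgeR adjusted p = 4.8e-05).

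The other B ligands did not share this pattern. Efnb2, the arterial ephrin, was at 37.8, 37.2, 29.2, 28.4 and 27.6 CPM in sham and 49.6, 38.8, 46.5, 70.3 and 68.05 in TAC, with TAC replicates 4 and 5 highest, and rose 1.71-fold (log2 fold change 0.77, SE 0.17, edgeR adjusted p = 0.0023). Efnb1, which is broadly expressed in heart tissue, was at 18.8 ± 2.76 and 19.8 ± 3.22 CPM and was not called. Per kilobase, Efnb3 went from 17.7% to 0.881% of the ephrin-B signal and Efnb2 from 37.8% to 57.1%.

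On the A side, Epha4, a receptor that binds ephrins of both classes, was the most abundant Eph gene of the sham atrium, at 32.7 ± 6.77 CPM per kilobase against 21.9 ± 4.07 for Ephb4 (SD, n = 5). It was at 292, 203, 313, 303 and 205 CPM in sham and 146, 78.3, 134, 112 and 109 in TAC. No TAC library reached the lowest sham library, and Epha4 fell 2.27-fold (log2 fold change -1.19, SE 0.18, edgeR adjusted p = 2.1e-04). In TAC the order was reversed, with Ephb4 at 22.3 ± 3.20 and Epha4 at 14.4 ± 3.22 CPM per kilobase. Epha1 rose from 0.904 ± 0.275 to 1.92 ± 0.434 CPM, with overlapping groups and with 6.01% of its exonic bases shared with Zyx on the opposite strand.

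Epha2 (18.4 ± 3.48 and 21.02 ± 2.55 CPM), Epha7 (21.9 ± 1.58 and 23.5 ± 6.22), Epha3 (7.22 ± 0.658 and 5.02 ± 2.47) and Epha5 (0.409 ± 0.195 and 0.382 ± 0.182) were not called. Epha3 was uneven after TAC, from 2.35 to 8.45 CPM, and without TAC replicate 2, its highest TAC library, it was called lower (log2 fold change -0.78, edgeR adjusted p = 0.026). Epha6, Epha8 and Epha10 did not pass the filter, and Epha8 and Epha10 had no count in any library.

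Of the GPI-anchored ephrin-A ligands, Efna5 was at 5.96, 6.39, 3.65, 6.16 and 6.12 CPM in sham and 11.0, 13.4, 12.3, 14.4 and 14.5 in TAC and rose 2.33-fold (log2 fold change 1.22, SE 0.16, edgeR adjusted p = 5.4e-05). The groups were far apart relative to their spread. Efna4 rose from 0.183 ± 0.117 to 1.09 ± 0.0991 CPM (log2 fold change 2.56 and SE 0.37), on 24 counts over the 5 sham libraries, and 10.5% of its exonic bases are shared with an antisense gene. The most abundant member, Efna1, which is cytokine-inducible in endothelium, was at 25.00 ± 3.29 and 24.6 ± 2.49 CPM and was not called, though it was called higher under scaling by size alone (0.35, edgeR adjusted p = 0.020). Efna2 (2.26 ± 0.425 and 2.18 ± 0.453 CPM) was not called either. Efna3 was too low to test.

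**Figure D3:**
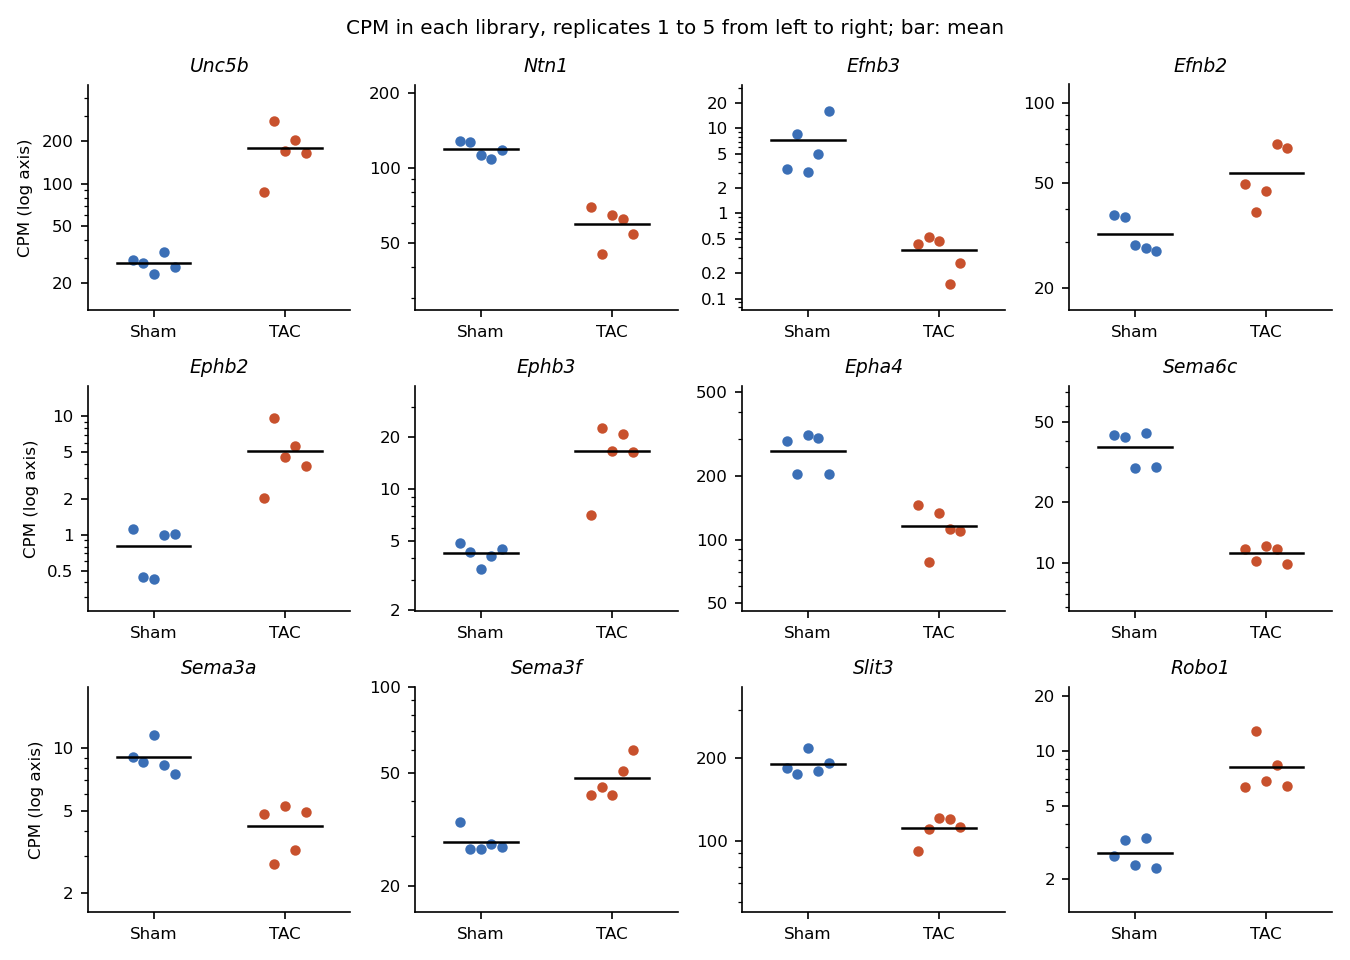
CPM (log axis) of 12 members in each of 5 sham (blue) and 5 TAC (orange) libraries, replicates 1 to 5 from left to right within a group, with the group mean as a bar. All 12 were called, and in each panel the groups do not overlap, as in 41.7% of all tested genes. Unc5b, Ephb2 and Ephb3 are highest in TAC replicate 2, and Efnb3 is highest in sham replicate 5.

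Of the 7 class 3 semaphorins, the secreted ligands, 2 were called higher (Sema3b and Sema3f) and 2 lower (Sema3a and Sema3c). Over all tested genes 28.9% were higher and 27.9% lower, so these counts are near the background. Sema3a, which repels sympathetic axons through neuropilin 1, was at 9.13, 8.56, 11.6, 8.35 and 7.54 CPM in sham and 4.79, 2.77, 5.24, 3.23 and 4.93 in TAC, and fell 2.16-fold (log2 fold change -1.11, SE 0.20, edgeR adjusted p = 5.2e-04). Sema3f, a ligand of neuropilin 2, was at 33.5, 27.03, 26.96, 28.2 and 27.4 CPM in sham and 42.0, 44.5, 42.0, 50.8 and 60.4 in TAC, and rose 1.68-fold (log2 fold change 0.75, SE 0.11, edgeR adjusted p = 1.6e-04). Sema3b, its neighbour on chromosome 9, was at 7.02, 7.09, 9.18, 7.94 and 5.22 CPM in sham and 12.5, 18.5, 22.1, 19.2 and 16.6 in TAC, and rose 2.43-fold (log2 fold change 1.28, SE 0.17). None of these 3 genes had overlapping groups, as was the case for 41.7% of all tested genes.

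Sema3c, which attracts cardiac neural crest, was called lower at 53.4 ± 9.95 and 39.4 ± 7.39 CPM (log2 fold change -0.44 and SE 0.15, edgeR adjusted p = 0.029), with overlapping groups. That call was lost without sham replicate 1, 2 or 5 or TAC replicate 2 or 4 (edgeR adjusted p from 0.054 to 0.082) and when libraries were scaled by size alone (-0.08, edgeR adjusted p = 0.69). Per kilobase, Sema3c was the leading class 3 gene in sham (35.7% of the class, Sema3f 26.6%), and Sema3f was the leading gene in TAC (35.5%, Sema3c 21.3%).

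Sema3d, another neural crest and endothelial ligand, was at 27.9, 31.9, 12.04, 11.6 and 19.6 CPM in sham and 25.7, 38.0, 25.6, 31.9 and 38.3 in TAC. The sham values split widely, with replicates 1 and 2, the shallowest libraries, inside the TAC range and the other 3 below it, and the gene was not called (edgeR adjusted p = 0.068). It was called higher without sham replicate 1 (edgeR adjusted p = 0.042) or 2 (edgeR adjusted p = 0.019), and by DESeq2 (adjusted p = 0.040). Without both shallow libraries its log2 fold change was 1.15 (edgeR adjusted p = 0.0023), against 0.65 with all 10. Raw counts of Sema3d were 449, 499, 396, 449 and 521 in sham replicates 1 to 5. Epicardial marker sums in these libraries were 263.5, 372.7, 119.4, 111.3 and 195.3 CPM, ranked as Sema3d was. In TAC replicates 1 to 5 the sums were 221.4, 199.6, 169.5, 158.4 and 401.3 CPM, ranked otherwise. The part of epicardial tissue or depth in the sham split was not tested. Sema3e, which binds plexin D1 without a neuropilin, was at 1.80 ± 0.957 and 1.03 ± 0.427 CPM, and Sema3g, an endothelial semaphorin, at 13.9 ± 2.59 and 14.997 ± 4.89; neither was called.

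Of 13 membrane-bound semaphorins 1 was called higher and 3 lower, where 28.9% and 27.9% of all tested genes were. Sema6c, a transmembrane semaphorin, was at 42.8, 42.2, 29.7, 44.0 and 29.8 CPM in sham and 11.8, 10.2, 12.1, 11.7 and 9.87 in TAC, and fell 3.38-fold (log2 fold change -1.76, SE 0.13, edgeR adjusted p = 2.1e-06). Every TAC library lay near 11 CPM, under all sham libraries. Sema4b fell from 16.4 ± 2.98 to 8.75 ± 1.47 CPM (log2 fold change -0.90 and SE 0.15), also with no overlap. Sema5a, whose extracellular part carries thrombospondin repeats, fell from 23.1 ± 1.07 to 18.1 ± 2.15 CPM (log2 fold change -0.35 and SE 0.09), but its sign under scaling by library size alone was the opposite (0.02, edgeR adjusted p = 0.91).

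Sema7a, the GPI-anchored semaphorin that binds plexin C1 and integrins, rose from 26.5 ± 1.87 to 35.2 ± 3.24 CPM (log2 fold change 0.40 and SE 0.08, edgeR adjusted p = 0.0012), with no overlap, and was the leading gene of these classes per kilobase (8.04 in sham and 10.7 CPM in TAC). Sema6d, a plexin A1 ligand of the developing heart, followed in sham, less than its own spread below Sema7a (7.90 ± 1.94 and 8.04 ± 0.567, SD, n = 5). It was not called at 83.4 ± 20.5 and 86.9 ± 19.8 CPM. Sema4d, a plexin B1 ligand of leukocytes and other cells, was at 39.6 ± 5.20 and 33.4 ± 3.90 CPM (edgeR adjusted p = 0.063), and Sema4a, an immune-cell semaphorin, at 7.13 ± 1.88 and 9.502 ± 2.03 (edgeR adjusted p = 0.096). Both crossed the threshold when 1 library was left out, Sema4d without sham replicate 5 or TAC replicate 5 and Sema4a without sham replicate 4 or TAC replicate 1 (edgeR adjusted p from 0.039 to 0.049 for Sema4d and 0.040 to 0.042 for Sema4a). Sema4c, Sema6a and Sema6b were between 9.88 and 19.0 CPM on average and Sema4f, Sema4g and Sema5b under 0.7 CPM, and none of these 6 was called; Sema6b was called higher without sham replicate 1 (edgeR adjusted p = 0.032).

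The plexins, the receptors of these ligands, diverged within class B. Plxnb2, a receptor for class 4 semaphorins and for angiogenin, was at 155, 130.5, 169, 148 and 112 CPM in sham and 248, 313, 289, 349.8 and 298 in TAC, and rose 2.10-fold (log2 fold change 1.07, SE 0.12, edgeR adjusted p = 2.7e-05). Plxnb1, the receptor of Sema4d, was at 41.3, 40.4, 45.1, 47.0 and 46.0 CPM in sham and 14.7, 19.9, 17.5, 17.7 and 23.6 in TAC, and fell 2.36-fold (log2 fold change -1.24, SE 0.11, edgeR adjusted p = 6.2e-06). Plxnb3, a receptor of Sema5a, was at 11.1, 13.1, 13.3, 12.6 and 14.972 CPM in sham and 3.35, 2.29, 3.43, 2.64 and 4.01 in TAC, and fell 4.13-fold (log2 fold change -2.05, SE 0.16, edgeR adjusted p = 2.2e-06). In each of the 3 genes the groups were separate, as in 41.7% of all tested genes. The directions of the 3 were the same under scaling by size alone (1.43, -0.87 and -1.68). As shares of the class per kilobase, Plxnb2 held 67.2% to 77.0% in sham libraries and 92.6% to 95.3% in TAC libraries. Plxnb1 held 16.4% to 22.2% in sham and 3.87% to 5.89% in TAC, and Plxnb3 held 6.55% to 10.7% and 0.822% to 1.51%. A small part of the exonic bases of Plxnb1 (2.68%) is shared with an antisense gene.

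**Figure D4:**
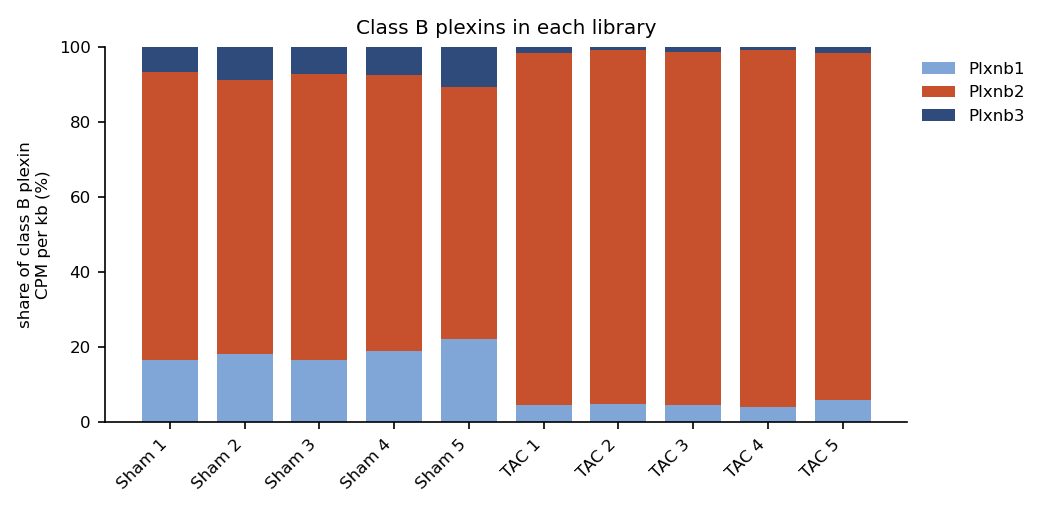
Share (%) of the summed class B plexin level, in CPM per kilobase of exon, held by Plxnb1, Plxnb2 and Plxnb3 in each of 5 sham and 5 TAC libraries. Plxnb2 takes 67.2% to 77.0% of the bar in sham libraries and 92.6% to 95.3% in TAC libraries.

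Because these 3 receptor genes moved in opposite directions, 200 bases before each start are printed, 5′ to 3′ from the RefSeq promoter table (GRCm38.p6), with CpG dinucleotides in capitals. Each stretch ends just before the GENCODE gene start, which is the RefSeq start for Plxnb2 and Unc5b and lies 47 bases before it for Plxnb1 and 13 for Plxnb3. They are chr15:89180789-89180988 on the minus strand for Plxnb2, chr9:109095189-109095388 on the plus strand for Plxnb1 and chrX:73756890-73757089 on the plus strand for Plxnb3.
Plxnb2: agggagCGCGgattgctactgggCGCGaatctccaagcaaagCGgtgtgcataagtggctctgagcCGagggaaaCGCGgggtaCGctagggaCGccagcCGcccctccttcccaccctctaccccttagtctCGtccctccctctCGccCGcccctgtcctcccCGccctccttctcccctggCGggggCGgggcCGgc
Plxnb1: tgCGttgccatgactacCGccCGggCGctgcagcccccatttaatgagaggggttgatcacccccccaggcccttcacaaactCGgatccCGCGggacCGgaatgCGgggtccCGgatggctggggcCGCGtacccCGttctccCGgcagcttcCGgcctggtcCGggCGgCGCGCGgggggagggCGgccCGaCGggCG
Plxnb3: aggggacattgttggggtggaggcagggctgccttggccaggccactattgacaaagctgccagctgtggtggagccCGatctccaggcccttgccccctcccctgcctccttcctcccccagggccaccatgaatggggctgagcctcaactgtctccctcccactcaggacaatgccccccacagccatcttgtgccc
The stretches hold 18, 24 and 1 CpG dinucleotides at GC contents of 69.5%, 73.0% and 64.5%, so that Plxnb3 differs from the others in CpG count while its GC content is close to theirs. The 2 genes that fell thus lie at opposite ends of the CpG counts. Over the 58 members with an entry in that table, whose 300-base windows run from 250 bases before to 50 after the RefSeq start, the median was 22.5 CpG dinucleotides, against 7 over 27025 promoters of all genes. The medians were 23.5 for 18 members that rose and 25 for 11 that fell. In these longer windows, Plxnb2 held 27 CpG dinucleotides, Plxnb1 36 and Plxnb3 4. Each gene has 1 window, so other starts of a gene are not covered. For 49 of the 58 windows, the bases just after the RefSeq start were found in a GENCODE transcript of the same gene. The window of Robo2, from 75447244 on chromosome 16, lies outside its GENCODE gene (73891839 to 74411825). Those of Sema3a and Robo1 lie far inside theirs.

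A search of the same windows on both strands for 5 motifs found few matches. The TEAD motif GGAATG was in 6 of 58 member windows (10.3%, against 14.6% of all promoters), those of Efnb2, Epha1, Epha2, Epha3, Plxnb1 and Plxnd1. The AP-1 motif TGANTCA was in 2 (3.45%, against 7.93%), Sema4c and Sema4d, and the E-box CACGTG in 4 (6.9%, against 7.24%). The ETS motif CCGGAAGT and the SMAD motif GTCTAGAC were in 0 of 58 (4% and 0.211% of all promoters). A match is a run of letters and not a binding site, and its absence speaks only for these windows.

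Outside class B the plexins moved less. Plxna2, a receptor for Sema6a and, with neuropilins, for Sema3c, fell from 96.8 ± 16.2 to 61.5 ± 6.13 CPM (log2 fold change -0.65 and SE 0.12, edgeR adjusted p = 7.1e-04), and sham replicate 4, at 69.1 CPM, lay within the TAC range. Plxnc1, the receptor of Sema7a, fell from 27.97 ± 6.34 to 16.6 ± 4.50 CPM (log2 fold change -0.75 and SE 0.19). Both calls were lost under scaling by size alone (edgeR adjusted p = 0.061 and 0.12). Plxnd1, an endothelial plexin, was called higher at 126 ± 17.7 and 163 ± 28.3 CPM (log2 fold change 0.38 and SE 0.14, edgeR adjusted p = 0.033), and Plxna1 at 41.2 ± 6.79 and 50.9 ± 5.71 CPM (log2 fold change 0.30 and SE 0.12, edgeR adjusted p = 0.045). These 2 calls were marginal, with overlapping groups, and 10.7% of the exonic bases of Plxna1 are shared with an antisense gene. The call of Plxna1 was lost without any of sham replicates 2, 3 and 5 and TAC replicates 2, 3 and 4 (edgeR adjusted p from 0.062 to 0.11), and that of Plxnd1 without any of the same 6 libraries or TAC replicate 5 (0.056 to 0.076). Plxna4 (92.0 ± 12.2 and 105 ± 10.1 CPM), a plexin of sympathetic neurons among others, and Plxna3 (2.67 ± 0.779 and 3.72 ± 1.55) were not called, though Plxna4 was called higher without sham replicate 1 or TAC replicate 1 (edgeR adjusted p = 0.045 and 0.037).

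Nrp1, the neuropilin that binds Sema3a and also VEGF-A, was at 196, 187, 179.6, 195 and 123 CPM in sham and 264, 211, 236, 345 and 316 in TAC, and rose 1.56-fold (log2 fold change 0.64, SE 0.16, edgeR adjusted p = 0.0046). The groups did not overlap, and sham replicate 5 was the lowest library. Nrp2, the neuropilin of Sema3f and of lymphatic vessels, was at 50.1 ± 10.5 and 60.2 ± 7.75 CPM and was not called (edgeR adjusted p = 0.13, and 0.049 without sham replicate 1). Nrp1 held 81.0% of the per-kilobase neuropilin signal in sham and 84.5% in TAC. Ligand and receptor thus moved apart in the Sema3a and Nrp1 pair, in which the ligand fell and the receptor rose.

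Slit3, the main Slit of the atrium, was at 185, 176, 219, 180.5 and 193 CPM in sham and 91.7, 110.3, 121, 120.0 and 113 in TAC, and fell 1.72-fold (log2 fold change -0.78, SE 0.09, edgeR adjusted p = 3.2e-05). All TAC libraries lay below all sham libraries, and Slit3 still made up 96.4% of the per-kilobase Slit signal in TAC. Slit2 was called higher at 12.1 ± 1.72 and 17.3 ± 5.36 CPM (log2 fold change 0.51 and SE 0.20, edgeR adjusted p = 0.044), with overlapping groups. Its call was lost without any of sham replicates 1, 2, 4 and 5 and TAC replicates 2, 3 and 4 (edgeR adjusted p from 0.057 to 0.10). Slit1 was too low to test.

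Robo1, the broadly expressed Slit receptor, was at 2.67, 3.26, 2.37, 3.35 and 2.29 CPM in sham and 6.34, 12.9, 6.84, 8.40 and 6.46 in TAC, and rose 2.94-fold (log2 fold change 1.56, SE 0.22, edgeR adjusted p = 1.2e-04). TAC replicate 2 was again the highest library, and without it the log2 fold change was 1.35. Robo4, the endothelial Robo, rose by a smaller amount with little spread, from 24.6 ± 2.21 to 31.9 ± 0.532 CPM (log2 fold change 0.38 and SE 0.07, edgeR adjusted p = 9.4e-04), and supplied 95.4% of the per-kilobase Robo signal in sham and 91.5% in TAC. Robo2, at 0.841 ± 0.283 and 0.667 ± 0.200 CPM, was not called, and Robo3 did not pass the filter.

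**Figure D5:**
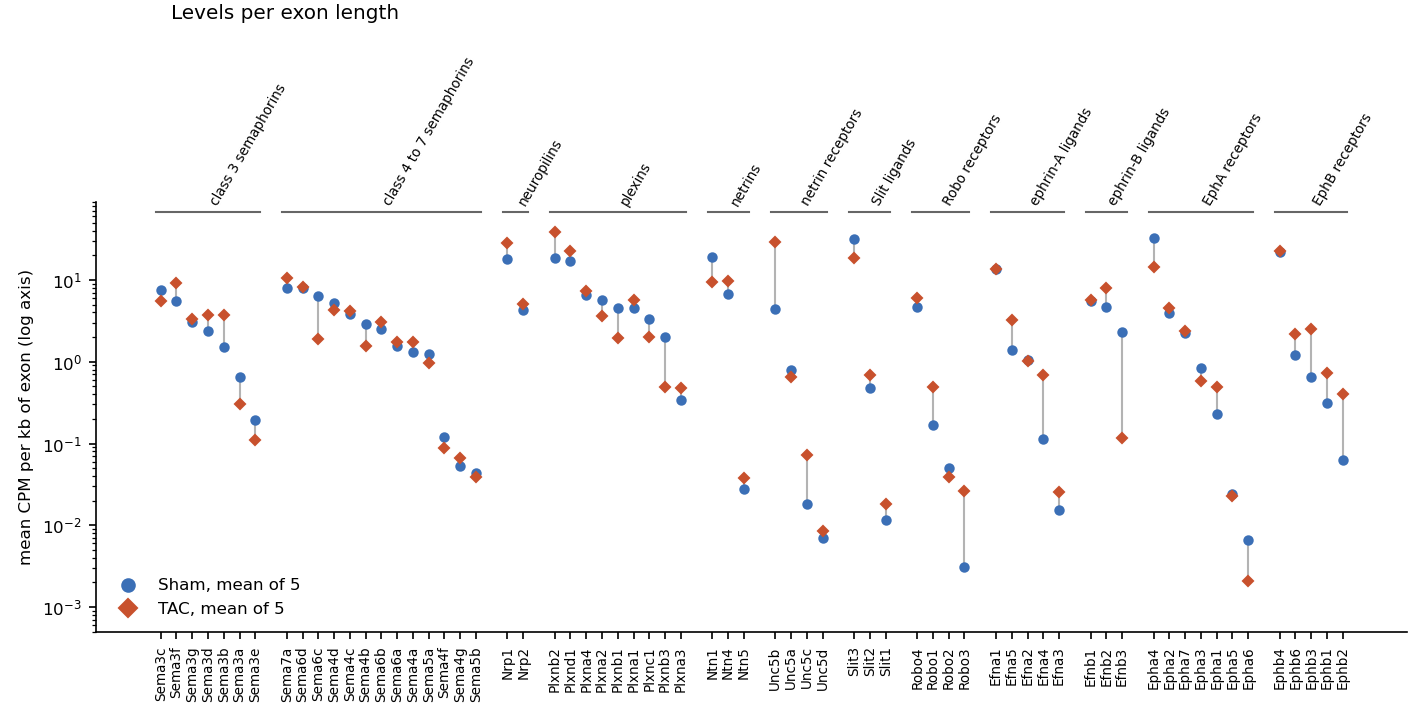
Mean level of the members in CPM per kilobase of exon (log axis) in sham (circles) and TAC (diamonds), 5 libraries each, sorted within each family by the sham level. Epha4 (32.7) and Slit3 (31.4) are highest in sham and Plxnb2 (38.8) and Unc5b (28.7) in TAC; Dcc, Epha8 and Epha10, at 0 in a whole group, are left out.

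Across all families the order of levels changed at its top. In sham the 4 highest members per kilobase were Epha4 (32.7 ± 6.77), Slit3 (31.4 ± 2.82), Ephb4 (21.9 ± 4.07) and Ntn1 (18.9 ± 1.37), with Plxnb2 (18.5 ± 2.86) and Nrp1 (18.0 ± 3.11) close behind. Epha4 and Slit3 did not differ beyond their spread, nor did Ephb4, Ntn1, Plxnb2 and Nrp1. In TAC they were Plxnb2 (38.8 ± 4.803), Unc5b (28.7 ± 10.9), Nrp1 (28.04 ± 5.65) and Plxnd1 (22.4 ± 3.87), where the spread of Unc5b covers the level of each of the others, and Ephb4 (22.3 ± 3.20) did not differ from Plxnd1 beyond the spread.

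Libraries of a group differed in how often they held the extreme values. TAC replicate 2 was the highest TAC library for 9 of the 21 members that rose and TAC replicate 1 the lowest for 11 of them, while sham replicate 5 was the lowest sham library for 10. TAC replicate 2 had the highest fibroblast marker sum (9147 CPM) and TAC replicate 1 the lowest (4118 CPM). TAC replicate 5, with a nearly equal sum (4247 CPM), was the lowest TAC library for only 1 of the 21. Over all 59 tested members, TAC replicate 1 was the lowest for 25. TAC replicate 2 was the highest for 16 of the 59, beside 15 for TAC replicate 5. The fibroblast marker sum includes Col1a1, at 2367 CPM in TAC replicate 2, 615 in TAC replicate 1 and 799.9 in TAC replicate 5. It is not a measure of fibroblast number, and the part of fibroblasts in the increases was not tested.

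Other genes of the pathway, in 3 lists of effectors and partners with 79 genes that are not members, were called higher in 31 and lower in 19 of 74 tested cases (median log2 fold change 0.14), where 28.9% of all tested genes were higher and 27.9% lower. The counts are given as descriptions, list by list. All partners named below passed the test. Among semaphorin and plexin effectors 12 were higher and 7 lower of 25. Cd72, a Sema4d receptor of B cells and macrophages, rose from 0.319 ± 0.148 to 8.51 ± 4.66 CPM, Rhod, a small GTPase, from 6.27 ± 1.42 to 17.0 ± 1.03, and Mical1, an oxidase that disassembles actin downstream of plexins, from 11.0 ± 1.30 to 25.1 ± 5.16 (SD, n = 5). L1cam, an adhesion molecule and Sema3a co-receptor, fell from 5.37 ± 0.429 to 2.72 ± 0.727 CPM, the receptor kinase gene Ret from 5.63 ± 1.34 to 1.58 ± 0.762, and Arhgef12, whose protein binds class B plexins, from 433 ± 35.7 to 333 ± 21.3.

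Among netrin and Slit partners 10 were higher and 7 lower of 26 tested. The Slit and Robo GTPase activators Srgap1 and Srgap3 rose from 2.05 ± 0.408 to 5.30 ± 0.792 and from 1.65 ± 0.458 to 7.80 ± 3.24 CPM, and the kinase gene Pak1 from 1.56 ± 0.543 to 5.79 ± 2.12 (SD, n = 5). Gpc1, a heparan sulfate proteoglycan that binds Slits, fell from 803 ± 89.6 to 404 ± 41.8 CPM, Neo1, the Dcc-related receptor of netrins and repulsive guidance molecules, from 162 ± 9.54 to 109 ± 10.2, and Flrt1 from 11.6 ± 1.54 to 3.08 ± 0.407.

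Among Eph and ephrin effectors 9 were higher and 5 lower of 23 tested. The Eph-linked exchange factors Ngef and Tiam1 rose from 0.543 ± 0.212 to 2.66 ± 0.813 and from 8.24 ± 1.67 to 18.0 ± 4.85 CPM, and Sipa1l1 from 28.1 ± 1.83 to 41.2 ± 5.48 (SD, n = 5). Anks1, an Eph receptor adaptor, fell from 95.9 ± 16.4 to 56.2 ± 10.7 CPM, the kinase gene Abl2 from 42.8 ± 2.30 to 33.5 ± 2.81 and the endothelial exchange factor gene Arhgef15 from 35.4 ± 3.27 to 25.03 ± 3.51. Under scaling by size alone, 46 partners in the 3 lists were higher and 6 lower.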

How the data were processed

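Bulk RNA-seq of 5 sham and 5 TAC libraries was used. The authors deposited 1 table of whole-number read counts per gene for each library, and the submitters' processing notes name bcl2fastq, STAR and mm10. For the counter, its strand setting and its annotation, the sources used here give no name. Without strand, reads of a gene and an overlapping antisense gene cannot be told apart (17 members share exonic bases with another gene). Closing tallies that name no gene were left out of library sizes. As shares of the sum of all rows of a table, tallies included, reads with no feature came to 3.12% in sham and 3.76% in TAC on average, ambiguous reads to 4.31% and 5.79%, multiply aligned reads to 15.8% and 13.4% and unaligned reads to 4.12% and 4.62%.

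From these counts, edgeR 4.0.16 (R 4.3.3) gave TMM factors, CPM, a filter on low counts (filterByExpr) that kept 15175 genes, and a robust quasi-likelihood F test on group alone, with Benjamini-Hochberg adjustment over all tested genes and a threshold of 0.05. The standard error is the size of the log2 fold change divided by the square root of F. Means ± SD are over 5 libraries. Levels per kilobase divide CPM by merged exon length in GENCODE M21, for example 25433 bases for Slit2 and 6067 for Slit3. Shares of a family therefore depend on the annotated lengths. Total counts ran from 17117306 to 43956384, and their number sets the precision. The script was tested on simulated counts. It recovered 43.3% of 60 genes changed 1.5-fold, 64.1% of 64 changed 2-fold and 90% of 70 changed 4-fold, and 5 of 135 calls were false. Far fewer genes were changed there than were called in the data, so these shares do not carry over directly. A member that was not called may still differ between the groups. DESeq2 1.42.0, limma 3.58.1 (voom), other scalings, filters and thresholds, thinning, a replicate block and left-out libraries were alternatives.

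The gene families and lists were picked as a subject with earlier results of these data known, and members were then taken by symbol. Text names every member, and of each partner list the 3 genes with the smallest adjusted p in each direction. Promoter sequences come from the RefSeq table for GRCm38.p6, which held 58 of the 68 members by symbol.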

Additional observations from a re-analysis of the deposited data

Results flagged for a closer look

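In 7 of 118 groups of 5 libraries (59 members in 2 groups, 5.93%), 1 library lay apart from the rest, with a gap to its nearest neighbour above 0.71 of the group's range; chance gives about 1 in 20. In sham, Efna5 was at 3.65 CPM in replicate 3, against 5.96 to 6.39 in the others, and Epha7 at 24.6 CPM in replicate 4, against 20.8 to 21.6. Nrp1 was at 123 CPM in sham replicate 5, against 179.6 to 196, and Plxna2 at 69.1 CPM in sham replicate 4, against 99.1 to 110.4. Robo2 was at 1.34 CPM in sham replicate 2, against 0.67 to 0.76, and Sema3f at 33.5 CPM in sham replicate 1, against 26.96 to 28.17. After TAC, Ephb1 was at 7.99 CPM in replicate 5, against 3.93 to 4.66 in the other 4 libraries. No library was the one apart for more than 2 members.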

How the results depend on the processing

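Of the 34 called members, 26 kept their direction and their side of the threshold in every alternative that tested them, which was all 23 except for Unc5c, not tested under the stricter filter on low counts. A further 7 lost the call in some, and Sema5a changed sign in 1. With library size as the only scaling 33 members were higher and 9 lower, 46 partners higher and 6 lower, and 7741 of all genes higher and 1929 lower, with Efna1 called higher (0.35, edgeR adjusted p = 0.020) and Sema5a at 0.017. A sign change of a member called in neither fit, which 12 of 25 uncalled members had in some alternative, was not counted as a reversal. Leaving out 1 library at a time gave 18 to 24 members higher and 12 to 14 lower, 29 to 32 partners higher and 14 to 19 lower, and 4136 to 4602 of all genes higher and 3762 to 4224 lower, and moved no member's fold change by over 1.45-fold (Efnb3 without sham replicate 5). At an adjusted p under 0.01, 17 members were higher and 12 lower, and Ephb6 was among those lost.

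Labels number the replicates 1 to 5 in both groups. With the replicate block 19 members were higher and 14 lower, 29 partners higher and 19 lower, and 4103 of all genes higher and 3917 lower; Plxna1, Plxnd1 and Slit2 lost their call and Sema3d and Sema3e gained one. Same-numbered libraries had correlated deviations of -0.04 to 0.08 over 5 pairs, and 1 sham library correlated best with its own number. Differently numbered libraries ran from -0.16 to 0.196. No pairing by number was seen, but 5 pairs are too few to exclude it. Depth limits the members under 1 CPM, where a group holds few reads.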

Other observations

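A total of 9 members were too low to test, and Epha8 and Epha10 had no count in any library. In the other 7 the counts summed over 5 libraries were 3 in sham and 33 in TAC for Robo3, a receptor of commissural axons, 10 and 21 for Slit1, 5 and 12 for Efna3, 9 and 15 for Unc5d, 8 and 16 for Ntn5, 5 and 2 for Epha6, and 1 and 0 for Dcc. Exonic bases shared with genes on the opposite strand made up 23.4% of Ntn5, 14.1% of Efna3 and 7.27% of Sema4c. Part of their counts may belong to those neighbours, or reads of the shared bases may have been tallied as ambiguous. Which of these holds was not tested.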
